A study of Mus musculus with 6 samples.

Results

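The genes described are 8 mouse genes that set the direction in which the hair bundle of an inner ear hair cell points: Gnai1, Gnai2, Gnai3, Gpsm2, Insc, Ccdc88c, Emx2 and Stk32a. They were chosen by symbol from what is known of hair bundle orientation, with earlier results of these data known. Each was matched to its Ensembl identifier in the count files, which list 39179 genes. All 8 passed the filter of at least 1 CPM (a count scaled to the total counted on genes in its library) in 3 or more libraries, as did 14723 genes in all. Stk32a passed it only through the vestibular libraries. The study compared the sensory epithelium of the cochlea, the hearing organ, with that of the vestibule, the balance organ. Both tissues came from wild-type C57Bl/6J mice on the day of birth (P0), with males and females pooled. RNA of 20 organs was pooled for each tissue, the dissection covered 10 mice, and 3 cochlear and 3 vestibular libraries were sequenced. The sources do not tell whether the 3 libraries of a tissue came from separate pools of animals, so the p-values measure the spread between these libraries, which may be technical.

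Hair cells carry a bundle of actin-filled stereocilia that is tallest on the side of a single kinocilium, and a cell responds to deflection along that axis. Inhibitory G alpha subunits, encoded by Gnai1, Gnai2 and Gnai3, bind the GoLoco motifs of GPSM2 and form a crescent on one side of the cell apex, where INSC is also found. The same G alpha and GPSM2 proteins gather at the tips of the tallest stereocilia, where MYO15, whirlin and EPS8 also act. CCDC88C (Daple) binds both G alpha subunits and Dishevelled and so joins this machinery to planar cell polarity. EMX2 is a homeodomain transcription factor that reverses bundle orientation where it is expressed, among others on one side of the line of polarity reversal in the utricle and saccule, and cochlear hair cells express it too. The kinase STK32A acts in the vestibular hair cells that lack EMX2.

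Sequence windows of 300 bases, from 250 bases before to 50 after the start site, were read from RefSeq (build GRCm38.p6) for Gnai1, Gnai3, Gpsm2, Insc and Emx2. The windows of Emx2 and Insc are shown because they hold TAATTA, the core of many homeodomain binding motifs, which reads alike on both strands and is in capitals. The Emx2 window lies at chr19:59458440-59458739 on the + strand and the Insc window at chr7:114745516-114745815 on the + strand.
Emx2: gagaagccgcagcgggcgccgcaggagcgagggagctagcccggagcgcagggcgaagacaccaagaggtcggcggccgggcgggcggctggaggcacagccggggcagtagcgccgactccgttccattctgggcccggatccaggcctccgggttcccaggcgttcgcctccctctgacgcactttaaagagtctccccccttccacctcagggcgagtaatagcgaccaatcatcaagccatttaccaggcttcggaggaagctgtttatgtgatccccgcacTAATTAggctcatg
Insc: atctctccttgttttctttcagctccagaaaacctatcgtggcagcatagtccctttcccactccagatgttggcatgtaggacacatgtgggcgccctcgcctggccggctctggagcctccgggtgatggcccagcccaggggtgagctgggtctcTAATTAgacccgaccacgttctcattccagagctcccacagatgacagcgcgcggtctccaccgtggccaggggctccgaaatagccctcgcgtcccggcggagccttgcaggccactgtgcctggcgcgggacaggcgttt
Both windows lie around a start site that RefSeq gives and inside the gene as GENCODE vM21 annotates it, whose start is further upstream at 59458372 for Emx2 and at 114743694 for Insc. The motif begins 36 bases after the RefSeq start site in Emx2 and 92 bases before it (offset -92) in Insc. It was in 2 of the 5 windows and not in those of Gnai1, Gnai3 and Gpsm2, and 5.29% of 32544 such windows in the table (1723) hold it. The motif was chosen after the windows were read, and a match describes letters, not binding.

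Gnai1, Gnai2 and Gnai3 encode closely related proteins, so it was checked how far their transcripts can be told apart. No stretch as long as a read (100 bases) of the longest transcript of the 3 genes, of Insc or of Stk32a was found in a transcript of any other gene of the GENCODE vM21 annotation. Gpsm2 overlaps Clcc1 on the opposite strand over 203 exonic bases, Emx2 overlaps Emx2os over 264 and Ccdc88c overlaps A630072L19Rik over 472. A630072L19Rik held at most 1 count. The library kit keeps strand, but the strand setting of the counting is not given in the sources used here, and reads in these overlaps cannot be assigned with certainty.

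Counts on genes were between 24464483 and 33664793 per library, so that 1 CPM stood for 24.5 to 33.7 counts. The labelled tissues were set beside marker lists, which were chosen with earlier results of these data known and so are no independent check of the labels: 6 of 6 cochlear epithelium markers were called higher in the cochlea (summed CPM of 10650 to 12940 against 739.8 to 886.9, led by Tecta) and 6 of 6 vestibular epithelium markers higher in the vestibule (1286 to 1769 against 8530 to 9814, led by Oc90). Hair cell markers summed to 898.4 to 1208 CPM in the cochlea and 1562 to 1984 in the vestibule, with 9 of 18 called higher in the vestibule and 2 in the cochlea. Supporting cell markers summed to 2395 to 3127 CPM in the cochlea and 2976 to 3371 in the vestibule. Of these markers, 7 of 12 were called higher in the cochlea and 1 in the vestibule. That 1 was Otog, which held 51.8% of the sum over all libraries, so the sum largely follows this gene. Vestibular libraries also held more of the markers of mesenchyme (7598 to 8757 against 5021 to 5747 CPM, with 3 of 8 called higher in the vestibule and 2 in the cochlea), Schwann cells (759.9 to 1237 against 227.9 to 457.4, 5 of 6), dark cells and stria (1210 to 1331 against 632.5 to 796.4, 5 of 6), endothelium (398.8 to 561.4 against 178.9 to 240.5, 5 of 6, with 1 called higher in the cochlea), macrophages (388.2 to 435.1 against 98.08 to 115.7, 6 of 6) and melanocytes (295.5 to 352 against 40.65 to 65.11, 6 of 6). The mesenchyme sum was led by Col1a2 (53.3%), and that of dark cells and stria by Slc12a2 (53.7%), which was not called. Neuron markers had 4 of 8 called higher in the cochlea (293.4 to 621.3 against 138.3 to 367.1 CPM). Cochlea replicate 3 held 277.6 CPM of skeletal muscle markers, against 4.01 to 26.2 in the other libraries. No marker was at 0 in all libraries. The part of these other cells in the differences below was not tested, and in bulk tissue fewer cells of a type and less RNA per cell cannot be told apart.

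Of the 8 orientation genes, 4 were called differentially expressed (DE) between the cochlea and the vestibule. Emx2, Insc and Gnai3 were higher in the cochlea and Stk32a was higher in the vestibule. Gnai1, Gnai2, Gpsm2 and Ccdc88c were not called. A call is an adjusted p of at most 0.05 in edgeR's quasi-likelihood test over all 14723 genes with Benjamini-Hochberg adjustment, and 27.4% of these genes were called, 15.8% higher in the vestibule and 11.6% higher in the cochlea. The CPM of the 2 tissues did not overlap for 5 of the 8 genes, against 41.8% of all genes tested. The median log2 fold change of the 8 genes, vestibule minus cochlea throughout, was -0.135, and that of all genes tested was 0.0048.

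**Figure D1:**
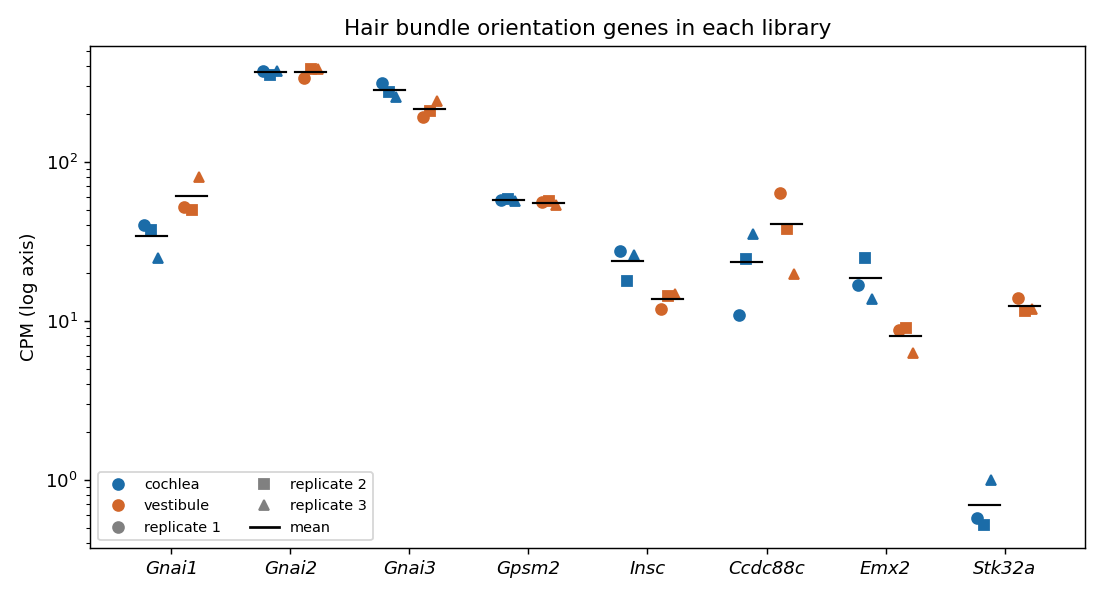
CPM on a log axis for each of the 8 genes, with 3 cochlear libraries (blue) and 3 vestibular libraries (orange), the marker shape giving the replicate and the black line the mean. Stk32a lies below 1 CPM in the cochlea and above 11 CPM in the vestibule, Emx2, Insc and Gnai3 lie higher in the cochlea, and the Ccdc88c points of both tissues spread over a wide range.

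**Figure D2:**
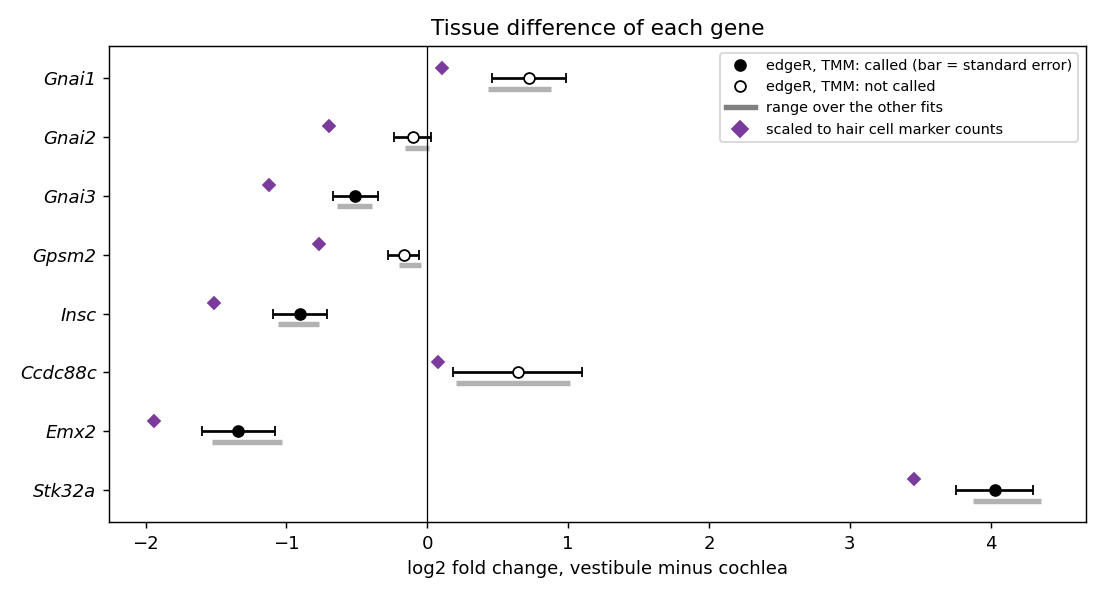
Log2 fold change (vestibule minus cochlea) of the 8 genes from edgeR with its standard error, filled where called, with a grey bar for the range over the alternative fits and a purple diamond for the fit scaled to hair cell marker counts. Stk32a has the largest value (4.03), and scaling to hair cell markers, whose sum is higher in the vestibule, moves all 8 genes to the left.

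The orientation factor Emx2 (ENSMUSG00000043969, chr19:59458372-59465357, + strand) was expressed at low levels in both tissues. It had 16.8, 25.0 and 13.8 CPM in cochlea replicates 1 to 3 and 8.79, 8.96 and 6.32 CPM in vestibule replicates 1 to 3. Each cochlear library was above each vestibular one, and cochlea replicate 2 stood highest. Means were 18.5 ± 5.79 CPM in the cochlea, against 8.02 ± 1.48 in the vestibule (SD, n = 3 each), a log2 fold change of -1.34 (SE 0.26, adjusted p = 0.00498), or 2.53-fold higher in the cochlea. Another scaling, filter or tool, a replicate block and each library left out gave 13 alternative fits, and the call held in 13 of 13, with log2 fold changes from -1.53 to -1.03.

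The antisense gene Emx2os (chr19:59425104-59458635, - strand), which shares chr19:59458372-59458635 with Emx2, was also higher in the cochlea. It had 5.97, 6.01 and 7.77 CPM in the cochlear libraries and 1.96, 2.49 and 1.45 CPM in the vestibular ones, without overlap between the tissues. Its log2 fold change was -1.86 (SE 0.25, adjusted p = 0.000657). Counts of Emx2 exceeded those of Emx2os in each library, with log2 ratios of 1.49, 2.06 and 0.83 in the cochlea, against 2.17, 1.85 and 2.12 in the vestibule. Emx1, the paralog of Emx2, did not pass the filter (0.36 ± 0.18 CPM in the cochlea, against 0.16 ± 0.061 in the vestibule).

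Stk32a (ENSMUSG00000039954, chr18:43207583-43318682, + strand), a serine/threonine kinase, had the largest difference of the 8 genes and the opposite direction to Emx2. It had 0.57, 0.52 and 0.99 CPM in the cochlear libraries, which stand for 14, 15 and 29 counts. In the vestibular libraries it had 13.9, 11.5 and 11.9 CPM, or 469, 295 and 303 counts. The tissues were far apart relative to the spread within either. The log2 fold change was 4.03 (SE 0.27, adjusted p = 1.76e-05), or 16.3-fold higher in the vestibule, and it was between 3.87 and 4.36 in the 10 alternative fits that could test the gene. Without any 1 of the vestibular libraries it no longer passed the filter, because only 2 libraries then reached 1 CPM.

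Emx2 and Stk32a were also set against each other within each library. Emx2 had more counts than Stk32a in each cochlear library (log2 ratios of 4.87, 5.58 and 3.80). In each vestibular library it had fewer counts than Stk32a (log2 ratios of -0.66, -0.36 and -0.91). Counts do not allow for the unequal length of the 2 genes, so these ratios compare libraries, not the levels of the genes. Per kilobase of all annotated exons, Emx2 was above Stk32a in 3 of 3 vestibular libraries, at 2.67 ± 0.49 against 1.50 ± 0.16 RPKM (CPM per kilobase of exon, SD, n = 3). Per kilobase of the longest transcript, a length added after seeing the data, it was above in 2 of 3, and its mean was again the higher.

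Stk32b, a paralog of Stk32a, went the other way from Stk32a, with 9.97, 10.6 and 9.17 CPM in the cochlea, against 4.99, 5.88 and 4.71 CPM in the vestibule. Its log2 fold change was -1.06 (SE 0.18, adjusted p = 0.00299). Stk32c was low in both tissues (2.34 ± 0.56 and 3.41 ± 1.02 CPM), its libraries overlapped, and it was not called (log2 fold change 0.44, adjusted p = 0.32).

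Gnai3 (ENSMUSG00000000001, chr3:108107280-108146146, - strand) was the G alpha gene of the family that was called. It had 315.4, 275.2 and 254.4 CPM in the cochlear libraries and 190.1, 208.4 and 241.8 CPM in the vestibular ones. The lowest cochlear library was just above the highest vestibular library. Means were 281.7 ± 31.0 and 213.4 ± 26.3 CPM, a log2 fold change of -0.51 (SE 0.16, adjusted p = 0.0434), or 1.43-fold higher in the cochlea. The direction held in 13 of 13 alternative fits (-0.64 to -0.39) but the call in 6 of them, with adjusted p from 0.0139 to 0.18. It was lost without cochlea replicate 1 (log2 fold change -0.44, adjusted p = 0.133), without cochlea replicate 2 (-0.50, 0.117), without vestibule replicate 1 (-0.39, 0.144) and without vestibule replicate 2 (-0.47, 0.18).

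Gnai2 (ENSMUSG00000032562, chr9:107614125-107635367, - strand) had the highest CPM of the 8 genes and differed least. It had 370.4, 353.2 and 374.5 CPM in the cochlea, against 338.5, 385.1 and 384.7 CPM in the vestibule. The ranges of the tissues overlapped, with vestibule replicate 1 the lowest library and the other vestibular libraries the highest. The log2 fold change was -0.10 (SE 0.13, adjusted p = 0.608).

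Gnai1 (ENSMUSG00000057614, chr5:18265135-18360355, - strand) had 40.3, 37.5 and 24.8 CPM in the cochlea, against 51.8, 49.8 and 80.9 CPM in the vestibule. The libraries did not overlap, but the spread within each tissue was large, with cochlea replicate 3 low and vestibule replicate 3 high. Means were 34.2 ± 8.28 and 60.8 ± 17.4 CPM, with a log2 fold change of 0.72 (SE 0.26), and the gene was not called (adjusted p = 0.0754). The log2 fold change fell to 0.43 without vestibule replicate 3 and to 0.52 without cochlea replicate 3. Over the alternative fits its adjusted p ranged from 0.0327 to 0.208, and 3 of 13 called it higher in the vestibule.

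Set against each other per kilobase of exon, the 3 Gnai genes made up the family in different proportions in the 2 tissues. Gnai3 made up 46.6%, 44.5% and 42.2% of the summed RPKM in the cochlear libraries and 35.4%, 35.2% and 36.8% in the vestibular ones. Each cochlear share was above each vestibular one, a difference of -8.61 percentage points (vestibule minus cochlea). Gnai1 made up 6.20%, 6.30% and 4.27% in the cochlea, against 10.1%, 8.75% and 12.8% in the vestibule, a difference of 4.94 points without overlap. Gnai2 made up 50.01% ± 3.24 and 53.7% ± 2.90 (SD, n = 3), and its libraries overlapped. The two-sided exact permutation p was 0.1 for Gnai3, 0.1 for Gnai1 and 0.2 for Gnai2, and 0.1 is the smallest value that 3 libraries against 3 can give. The summed level of the family was 194.1 ± 11.9 RPKM in the cochlea, against 182.6 ± 18.7 in the vestibule, a difference within the spread (exact permutation p = 0.4).

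**Figure D3:**
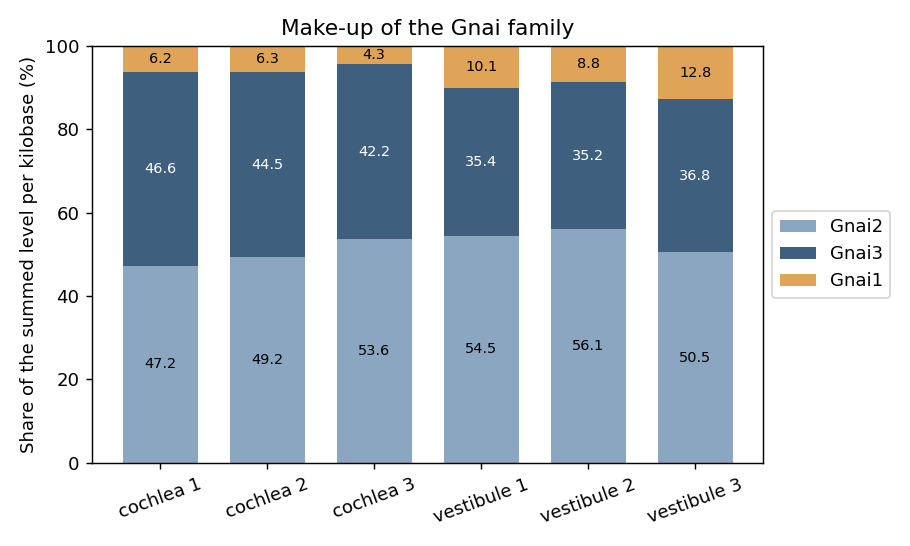
Share (%) of Gnai2, Gnai3 and Gnai1 in their summed level per kilobase of exon, as stacked bars for each library. Gnai3 takes 42.2% to 46.6% of the bar in the cochlea and 35.2% to 36.8% in the vestibule.

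Gpsm2 (ENSMUSG00000027883, chr3:108678638-108722309, - strand), which encodes the GoLoco scaffold that binds the G alpha subunits, was the most even of the 8 genes. It had 57.3, 58.4 and 56.3 CPM in the cochlear libraries and 56.1, 56.8 and 53.5 CPM in the vestibular ones. The tissues overlapped and the coefficient of variation was 1.78% in the cochlea, against 3.17% in the vestibule. The log2 fold change was -0.17 (SE 0.11, adjusted p = 0.308), and the gene was not called in the 13 alternative fits above. It was called (-0.77, adjusted p = 0.00513) in a further fit with the hair cell marker counts as library size, which moves all 8 genes towards the cochlea and also called Gnai2 (-0.70, adjusted p = 0.0152).

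Insc (ENSMUSG00000048782, chr7:114743694-114850383, + strand), which encodes the partner of GPSM2 known as Inscuteable, was higher in the cochlea. It had 27.6, 17.8 and 25.9 CPM in the cochlea, against 11.9, 14.3 and 14.8 CPM in the vestibule. Cochlea replicate 2 came nearest to the vestibular libraries without reaching them. Means were 23.8 ± 5.21 and 13.7 ± 1.56 CPM, a log2 fold change of -0.90 (SE 0.19, adjusted p = 0.00811), or 1.87-fold higher in the cochlea. The call held in 13 of 13 alternative fits (-1.06 to -0.77).

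Ccdc88c (ENSMUSG00000021182, chr12:100911523-101029056, - strand) varied more between libraries of a tissue than between the tissues. It had 10.8, 24.5 and 35.0 CPM in the cochlea, against 64.0, 37.7 and 19.6 CPM in the vestibule. The ranges overlapped, and the coefficient of variation was 51.7% in the cochlea, against 55.2% in the vestibule, the largest among the 8 genes in either tissue. The log2 fold change was 0.64 (SE 0.46, adjusted p = 0.338). It was 0.21 without vestibule replicate 1, 0.29 without cochlea replicate 1, 0.97 without vestibule replicate 3 and 1.02 without cochlea replicate 3, and was called in none of these fits. The longest transcript of Ccdc88c has 7542 bases, the most of the 8 genes, and the order of its libraries was compared with the share of counts on the 1232 other genes with a transcript of at least this length, a measure chosen after the values were seen. That share was 6.69%, 7.59% and 9.24% in the cochlear libraries and 10.7%, 8.71% and 7.24% in the vestibular ones. The 6 libraries kept nearly the same order in both measures, with cochlea replicate 1 lowest and vestibule replicate 1 highest. Within each tissue Gnai3 ran in the opposite order to this share, highest in the library with the lowest share and lowest in the library with the highest. Of all genes tested, 11.6% ranked within both tissues as this share did and 7.4% ranked in the reverse order. The part of transcript length in either gene's values was not tested.

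**Figure D4:**
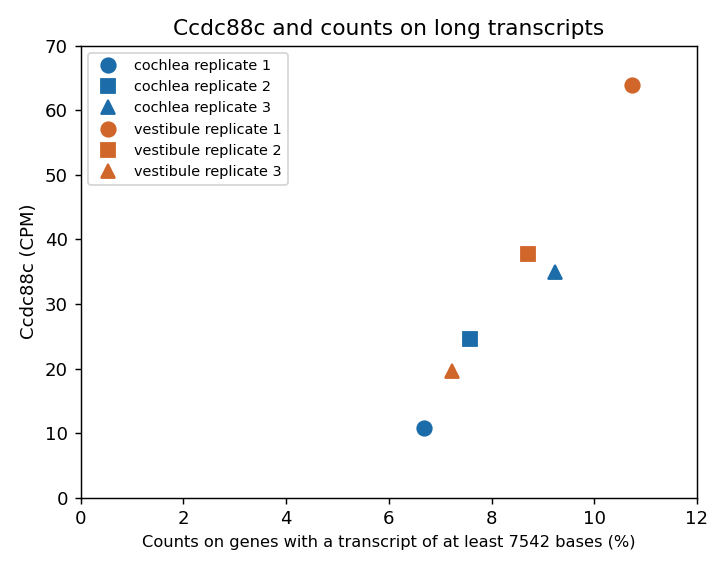
CPM of Ccdc88c against the share (%) of counts on the 1232 other genes with a transcript of at least 7542 bases, with each point 1 library. The points rise from cochlea replicate 1 (10.8 CPM, 6.69%) to vestibule replicate 1 (64.0 CPM, 10.7%), and the tissues are interleaved.

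Levels can be compared between genes only per length, and in RPKM the 8 genes covered a wide range. In the cochlea the order was Gnai2 (96.9 ± 2.99), Gnai3 (86.4 ± 9.5), Gpsm2 (14.7 ± 0.26), Gnai1 (10.9 ± 2.64), Insc (6.39 ± 1.40), Emx2 (6.16 ± 1.93), Ccdc88c (2.06 ± 1.06) and Stk32a (0.084 ± 0.031). Of these neighbours, the libraries of Gnai2 and Gnai3 overlapped, as did those of Insc and Emx2, and the others were apart. In the vestibule the order was Gnai2 (97.8 ± 7.08), Gnai3 (65.4 ± 8.05), Gnai1 (19.4 ± 5.54), Gpsm2 (14.2 ± 0.45), Insc (3.68 ± 0.42), Ccdc88c (3.55 ± 1.96), Emx2 (2.67 ± 0.49) and Stk32a (1.50 ± 0.16). There Insc and Ccdc88c overlapped, as did Ccdc88c and Emx2. These lengths are of all annotated exons together. Per kilobase of the longest transcript the order of the means was the same in both tissues, but Gnai2 and Gnai3 no longer overlapped in the cochlea and Gnai1 and Insc did. In the vestibule Gnai1 and Gpsm2 then overlapped, with Gnai1 above in 2 of 3 libraries where it was above in 3 of 3 per kilobase of exon, and so did Emx2 and Stk32a.

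Each gene was also set against the summed level of the hair cell markers in the same library. The sum was higher in each vestibular library, so a gene with an even CPM is lower in the vestibule on this scale by construction, as Gnai2 and Gpsm2 were (log2 ratio differences of -0.70 and -0.76). The difference was -1.12 for Gnai3, -1.49 for Insc, -1.89 for Emx2 and 3.50 for Stk32a, in each case without overlap between the tissues. For Gnai1 (0.11) and Ccdc88c (0.07) the libraries overlapped, and the sign of both turned with the median marker in place of the sum (-0.31 and -0.36) and without Myo6 (-0.26 and -0.30). It also turned for Gnai1 without cochlea replicate 3 (-0.21) or vestibule replicate 3 (-0.18), and for Ccdc88c without cochlea replicate 1 (-0.30) or vestibule replicate 1 (-0.24). The exact permutation p was 0.1 for Gnai3, Insc, Emx2 and Stk32a, the smallest that 3 against 3 allows, but also for Gnai2 and Gpsm2, whose CPM was even and whose libraries did not overlap on this scale either, and it was 0.9 for Gnai1 and 0.8 for Ccdc88c. The marker sum was 898.4, 1062 and 1208 CPM in cochlea replicates 1 to 3 and 1984, 1647 and 1562 CPM in vestibule replicates 1 to 3, and within each tissue it ranked as the share of counts on long transcripts did. Over all 6 libraries Myo6 held the largest part of the sum of any 1 marker (26.5%). It had 399.1 CPM in the cochlea and 340.2 in the vestibule on average. In the vestibule Otof had a higher mean (389.7 CPM) through vestibule replicate 1 (530.5 CPM). The longest transcript of Myo6 has 7927 bases, and Myo6 was not called. Other cells in the tissue can express the genes too, so these ratios are not levels per hair cell, and the part of transcript length in them was not tested.

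Partner genes were taken from 8 lists chosen by function, with earlier results of these data known. The lists held 100 genes in all without the 8 above, of which 91 were tested. Of these, 15 were called higher in the vestibule, 12 higher in the cochlea and 64 were not called, so that 29.7% were called against 27.4% of all genes. The 27 calls fell to 14 without vestibule replicate 2 and to 15 without cochlea replicate 2. Calls over all genes fell from 4036 to 2267 and 2799 in the same fits. With the replicate block the partner calls fell to 12, where 2618 of the 14723 genes were called. The median log2 fold change of the 91 partner genes tested was -0.004. Within both tissues, 7 of the 27 called genes (Ccdc88b, Celsr1, Llgl2, Myo15, Rap1gap, Scrib and Whrn) ranked as the share of counts on long transcripts did and 3 (Gng2, Gngt2 and Ift20) ranked in the reverse order. Of all 91 partner genes tested, 22 (24.2%) ranked as the share did, against 11.6% of all genes tested, and 12 (13.2%) in reverse, against 7.4%. The part of transcript length in these calls was not tested.

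The stereocilia tip partners were the list with the highest median (0.546), with 5 of 11 genes called higher in the vestibule and 1 in the cochlea. Of all genes tested, 15.8% were called higher in the vestibule and 11.6% higher in the cochlea. The same shares stand beside the counts of the lists that follow. Myo15, the motor that carries the tip complex, had 4.58, 8.61 and 16.3 CPM in the cochlea, against 77.7, 31.9 and 27.2 CPM in the vestibule (log2 fold change 2.07, SE 0.49, adjusted p = 0.0142). Within each tissue its libraries ranked as the long-transcript share did, and its longest transcript has 11769 bases. Whrn, the scaffold whirlin, had a log2 fold change of 1.44 (adjusted p = 0.0234), but its libraries overlapped, at 7.15 to 14.9 CPM in the cochlea and 14.4 to 41.2 in the vestibule, and they too ranked as that share did within each tissue. Espn, the actin bundler espin, was at 24.5 to 37.5 CPM in the cochlea and 85.1 to 97.2 in the vestibule (log2 fold change 1.37, adjusted p = 0.000736). Myo3a, a myosin of stereocilia tips, went the other way, with 5.80 to 8.21 CPM in the cochlea and 1.71 to 2.38 in the vestibule (log2 fold change -1.92, adjusted p = 0.000388). The sum of the hair cell markers was also higher in the vestibule, at 1562 to 1984 against 898.4 to 1208 CPM. Of these markers, 9 of 18 were called higher in the vestibule and 2 in the cochlea, and their part in this list was not tested.

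Among the GoLoco proteins and G alpha chaperones, the relatives of Gpsm2 and the proteins that fold or activate G alpha subunits, 2 of 7 genes tested were called higher in the vestibule and none in the cochlea. These were Rap1gap (29.9 to 35.8 against 59.3 to 101.9 CPM, log2 fold change 1.21, adjusted p = 0.00111), a GTPase-activating protein for Rap1, and Gpsm3 (1.96 to 2.64 against 3.80 to 4.71 CPM, 0.79, adjusted p = 0.0305). Of the other G alpha subunits, 2 of 10 tested were called higher in the vestibule and 1 in the cochlea. Gna15 passed the filter only through the vestibular libraries (0.31 to 0.49 against 1.44 to 2.26 CPM, log2 fold change 2.13, adjusted p = 0.00131) and Gna14 was moderate (21.3 to 24.8 against 35.0 to 40.8 CPM, 0.57, adjusted p = 0.00891). Both encode subunits of the Gq class. Gnao1, the subunit of the inhibitory class that is abundant in neurons, was higher in the cochlea (31.6 to 40.6 against 16.3 to 24.7 CPM, -0.94, adjusted p = 0.00662).

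G beta and gamma subunits, which pair with G alpha, had 3 of 12 genes tested called higher in the cochlea and 1 in the vestibule. Gng8 had 8.99, 8.37 and 8.38 CPM in the cochlea, against 1.37, 1.32 and 0.67 in the vestibule (log2 fold change -3.05, SE 0.27, adjusted p = 7.38e-05), the largest difference of the partner genes. Gng3 was at 8.04 to 25.8 against 3.66 to 6.68 CPM (-1.89, adjusted p = 0.0127) and Gng2 at 102.7 to 127.1 against 60.7 to 63.8 CPM (-1.02, adjusted p = 0.000665). Gngt2 was at 0.55 to 0.69 against 1.04 to 2.002 CPM (1.08, adjusted p = 0.0499) and passed the filter only through the vestibular libraries. Neuron markers stood at 293.4 to 621.3 CPM in the cochlea and 138.3 to 367.1 in the vestibule, with cochlea replicate 3 low in both Gng3 and the markers, and their part in the values of Gng3 and Gnao1 was not tested.

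The list of the Par complex, spindle partners and relatives of Daple had 2 of 14 genes called in each direction. Ccdc88b, a paralog of Ccdc88c, was low (0.57 to 1.27 against 1.81 to 2.70 CPM, log2 fold change 1.24, adjusted p = 0.020), and Llgl2, a polarity protein of the basolateral side, was at 40.9 to 55.0 against 73.8 to 88.8 CPM (0.64, adjusted p = 0.00903). Pard6g (63.2 to 74.4 against 47.1 to 50.6 CPM, -0.66, adjusted p = 0.00671) and Pard6b (42.8 to 51.3 against 31.7 to 39.1 CPM, -0.53, adjusted p = 0.0375), adaptors of the Par complex with atypical protein kinase C, were higher in the cochlea. Of the kinocilium and basal body positioning genes, 14 of 16 were not called, where 27.4% of all genes tested were called. The exceptions were Ift20, of intraflagellar transport (32.6 to 39.5 against 49.7 to 55.9 CPM, 0.44, adjusted p = 0.0439), and Pak1, a kinase downstream of Rac (71.9 to 76.2 against 43.3 to 45.7 CPM, -0.83, adjusted p = 0.000695).

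Of the core planar cell polarity genes, which orient cells across the epithelium, 14 of 18 were not called. Over all genes tested, 27.4% were called, a share near that of this list. Ankrd6 (Diversin, which binds Dishevelled) was higher in the vestibule (26.5 to 34.2 against 67.6 to 89.9 CPM, log2 fold change 1.31, adjusted p = 0.000315). Scrib, an apicobasal scaffold, was called as well (0.81, adjusted p = 0.0475), but its libraries overlapped (52.8 to 96.3 against 90.6 to 168.3 CPM) and within each tissue ranked as the long-transcript share did. Celsr1, an atypical cadherin, was higher in the cochlea (283.4 to 482.9 against 207.2 to 279.8 CPM, -0.80, adjusted p = 0.0183), with the same ranking within each tissue, and so was Prickle1 (22.1 to 35.3 against 18.2 to 20.5 CPM, -0.66, adjusted p = 0.0357).

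**Figure D5:**
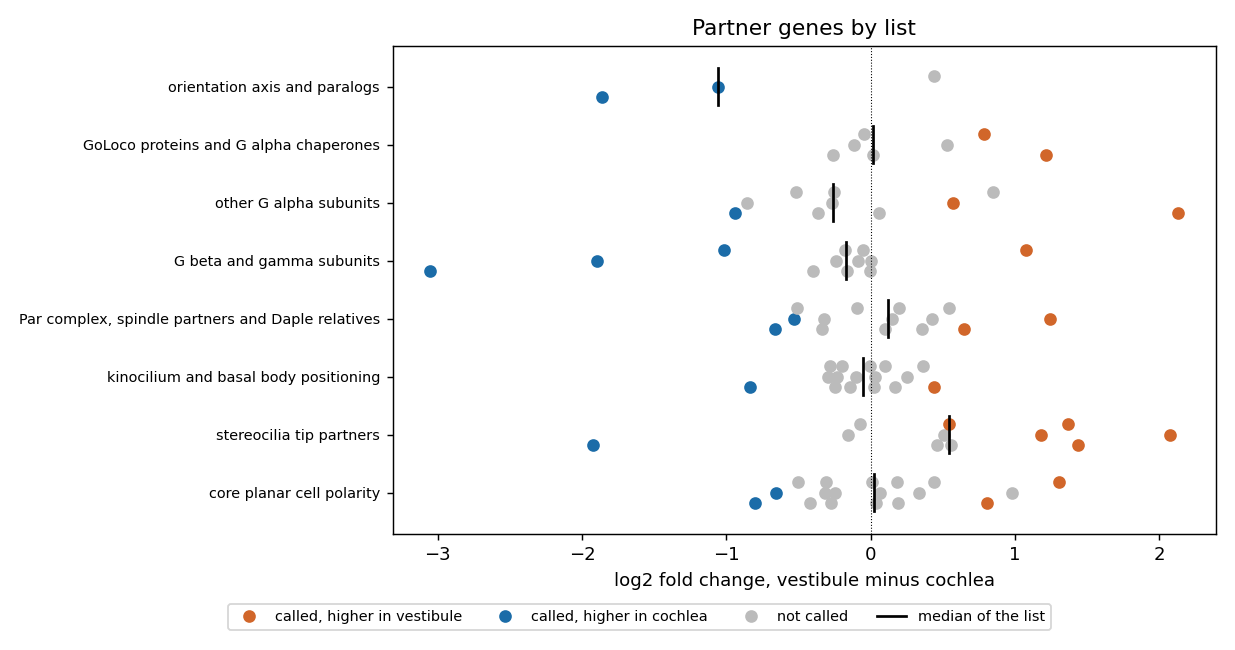
Log2 fold change (vestibule minus cochlea) of the 91 partner genes tested, each a point, in rows by list, coloured by call and with a black line at the median of the list. Most points lie near 0 and are not called, and the stereocilia tip partners have the highest median (0.546).

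The genes whose log2 CPM over the 6 libraries was most like that of each orientation gene were sought among 12062 genes with a mean of at least 5 CPM. The Pearson r values that follow describe 6 points that share 2 tissues and their libraries. For Stk32a they were Slc4a4 (r = 0.9998), Tbx15 (0.9992) and Slc7a8 (0.9988). Tbx15 had 0.87 to 1.51 CPM in the cochlea and 14.3 to 17.3 in the vestibule, a range close to that of Stk32a. For Emx2 they were Dusp10 (0.9947), Syt7 (0.9884) and Smad9 (0.9881), and Smad9 had its highest value (18.8 CPM) in cochlea replicate 2, as Emx2 did. For Insc they were Chtf8 (0.9963), Tsen15 (0.9871) and Galk1 (0.9857). For Ccdc88c they were Ankrd11 (0.9991), Prrc2c (0.9965) and Pcnt (0.9959), none of them called, and Ankrd11 ranged from 21.0 CPM in cochlea replicate 1 to 249.1 in vestibule replicate 1. For Gpsm2 they were Bmt2 (0.9954), Zfp869 (0.9755) and Maneal (0.966). For Gnai1 they were C1qtnf6 (0.9907), Slc35e4 (0.9902) and Smpdl3a (0.9892), for Gnai2 Ccdc85b (0.9935), Arhgdia (0.9822) and Acy3 (0.9804), and for Gnai3 Dpy30 (0.9907), Golga7 (0.9905) and Lgalsl (0.9892).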

How the data were processed

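The authors sequenced polyadenylated RNA (TruSeq Stranded mRNA kit, 450 ng, 100 bp paired-end), aligned it to GRCm38 and deposited raw read counts per Ensembl gene, with no normalization. The submitters' processing notes name TopHat2 2.1.0, SAMtools 0.1.18, HTSeq 0.5.4p5 and edgeR 3.4.2. A deposited log2 RPKM table (6 columns of sample values) was not used here, since the counts allow a count test. The 5 summary lines of each count file, 18.5% to 20.6% of listed counts, stayed out of library sizes and tests.

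A gene entered the test if 3 or more libraries reached 1 CPM. The test was that of edgeR 4.0.16 under R 4.3.3 (quasi-likelihood, TMM scaling, Benjamini-Hochberg adjustment, FDR of 0.05), and it was tested on simulated data. Printed CPM is scaled to library size alone. Fold changes come from the TMM-scaled fit. RPKM is CPM per kilobase of the exon union in GENCODE vM21 (GRCm38), which held 37693 of 39179 identifiers and gave the gene coordinates. Alternatives were DESeq2 1.42.0, limma-voom (limma 3.58.1), other scalings and filters, a replicate block and leaving out each library. Log2 CPM for the search of like genes used a prior count of 0.5. Figures were drawn with matplotlib 3.10.9.

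The genes, lists and markers were chosen with earlier results of these data known. Named partner genes are the called genes of each list, up to 3 in each direction, and every gene of the orientation axis list, except that the result of 1 gene is not reported here and was left out of the list counts.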

Additional observations from a re-analysis of the deposited data

How the results depend on the processing

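The direction of Gnai1, Gnai3, Gpsm2, Insc, Ccdc88c, Emx2 and Stk32a held in each alternative fit that tested them. Gnai2 had a log2 fold change above 0 without TMM scaling (0.0132) and without vestibule replicate 1 (0.0022), and was called in neither; with each library left out in turn it lay between -0.16 and 0.0022. Gnai3 lost its call without cochlea replicate 1 or 2 or vestibule replicate 1 or 2, and also without TMM (adjusted p = 0.0651), with a filter of 5 CPM (0.0511) or with the replicate block (0.15). Gnai1 was called without TMM (0.0378), without the filter (0.0377) and by DESeq2 (0.0327). The replicate block lowered the calls over all genes from 4036 to 2618 and those of partner genes from 27 to 12. Deviations of libraries with the same replicate number correlated at -0.175, -0.26 and -0.474. The share of counts on long transcripts rose from replicate 1 to replicate 3 in the cochlea and fell in the vestibule. With such opposite trends these correlations cannot tell whether replicate numbers pair the libraries. With each library left out in turn, calls over all genes ranged from 2267 (without vestibule replicate 2) to 4557 (without cochlea replicate 3), those of the 8 genes from 2 (without vestibule replicate 1 or 2, where Stk32a was not tested and Gnai3 was lost) to 4, and those of partner genes from 14 (without vestibule replicate 2; 15 without cochlea replicate 2) to 31 (without cochlea replicate 3). Without TMM the median over all genes moved on the log2 scale from 0.0048 to 0.1253, and the split of calls from 2325 higher in the vestibule and 1711 higher in the cochlea to 2754 and 1251. With the longest transcript as length, the difference in the Gnai3 share was -6.87 points. With the median hair cell marker in place of the sum, the log2 ratio differences were -1.13 (Gnai2), -1.54 (Gnai3), -1.19 (Gpsm2), -1.92 (Insc), -2.32 (Emx2) and 3.08 (Stk32a), and without Myo6 they were -1.07 (Gnai2), -1.49 (Gnai3), -1.13 (Gpsm2) and 3.13 (Stk32a), while Gnai1 and Ccdc88c turned from 0.11 and 0.07 to -0.31 and -0.36 with the median and to -0.26 and -0.30 without Myo6. The cause of these shifts was not tested. Stk32a rests on 14 to 29 counts in each cochlear library, which limits the precision of its fold change.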
